A study of Mus musculus with 3 samples.

Results

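Crosslinks of the splicing regulator Tra2β were followed over 10 importin genes, which encode the receptors and adaptors that carry proteins into the nucleus. The genes were Kpna1, Kpna2, Kpna3, Kpna4 and Kpna6, which encode importin-α adaptors, and Kpnb1, Ipo5, Ipo7, Ipo8 and Ipo11, which encode receptors of the importin-β type. They are 10 of the 78289 genes of the GENCODE vM39 annotation. The set was put together because Kpna4 exon 3 and Ipo5 exon 21 had many crosslinks relative to the other exons of their transcripts, so the crosslink counts of those exons are given as descriptions without a test. All samples came from testes of adult wild type mice and were used for iCLIP with a polyclonal antibody against Tra2β, in 1 group of 3 biological replicates. The labels describe minced total testes, while the methods speak of germ cells that mincing set free before the irradiation, so how much somatic tissue was crosslinked is not settled by the sources used here. In a mixture of cell types fewer cells of a type and less RNA per cell cannot be told apart. Control libraries (input, IgG or knockout) were not analysed here, and each value was therefore set against other parts of the same gene or against other genes of the same library.

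Proteins with a classical nuclear localisation signal are bound by importin-α, which binds importin-β1, the product of Kpnb1, through its N-terminal importin-β-binding domain. Importin-β1 carries the complex through the nuclear pore, and the GTPase Ran releases the cargo inside the nucleus. Other receptors of the importin-β type, such as those encoded by Ipo5, Ipo7, Ipo8 and Ipo11, bind cargo themselves, among them ribosomal proteins and histones. Germ cells change the importins they express as spermatogenesis proceeds. Tra2β is an SR-like protein that binds purine-rich RNA with GAA-containing sequences and activates exons from sites within them. In iCLIP, ultraviolet light fixes the protein to RNA, and the end of each cDNA marks the contact. Each unique cDNA at a nucleotide was counted as 1 crosslink, and CPM is crosslinks scaled to 1000000 crosslinks that lay in genes of the library.

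The exons that the results turn on are shown first, from GRCm39 and 5′ to 3′ along the gene, with each GAA in capitals. Kpna4 exon 3 and Ipo5 exon 21 are the exons with the most crosslinks per nt of their transcripts. Kpna3 exon 3 matches Kpna4 exon 3 in the nearest paralog, Kpna6 exon 2 and Ipo5 exon 20 were called below, and the coding part of Kpna1 exon 2 matches Kpna6 exon 2. Their positions are, in the order shown, chr3:69008674-69008763 (minus strand), chr14:61629205-61629294 (minus strand), chr4:129555099-129555232 (minus strand), chr16:35820557-35820685 (plus strand), chr14:121179044-121179155 (plus strand) and chr14:121179242-121179297 (plus strand).
Kpna4 exon 3: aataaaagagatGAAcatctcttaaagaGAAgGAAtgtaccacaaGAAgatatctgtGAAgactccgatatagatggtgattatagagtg
Kpna3 exon 3: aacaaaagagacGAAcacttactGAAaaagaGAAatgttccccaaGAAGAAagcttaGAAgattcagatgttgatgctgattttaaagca
Kpna6 exon 2: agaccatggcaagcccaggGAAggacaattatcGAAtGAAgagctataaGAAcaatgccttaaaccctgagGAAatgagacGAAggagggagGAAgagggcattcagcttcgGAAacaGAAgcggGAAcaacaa
Kpna1 exon 2, coding part: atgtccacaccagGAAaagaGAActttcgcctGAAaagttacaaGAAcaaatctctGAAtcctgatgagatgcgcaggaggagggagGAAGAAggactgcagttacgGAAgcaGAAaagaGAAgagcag
Ipo5 exon 20: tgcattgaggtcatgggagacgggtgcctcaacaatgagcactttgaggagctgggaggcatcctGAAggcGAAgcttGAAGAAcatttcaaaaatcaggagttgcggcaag
Ipo5 exon 21: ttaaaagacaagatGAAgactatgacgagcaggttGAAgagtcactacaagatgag

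Kpna4 exon 3 has 5 GAA and its Kpna3 match has 6, while Kpna6 exon 2 and the coding part of Kpna1 exon 2 have 10 each. Ipo5 exon 21 has only 2 GAA, but 69.6% of its bases are purines. Over 88341 internal exons of genes with at least 20 crosslinks, the median purine content was 53.3%.

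The libraries held 348033, 619571 and 488719 crosslinks in replicates 1, 2 and 3, of which 296946, 459310 and 428612 lay in genes. A count of 0 in a library allows up to 3 crosslinks, and these limits and the intervals below cover counting error only. Replicate 2 stood apart in that 26.9% of its crosslinks in protein-coding genes were exonic, against 43.1% and 55.7% in replicates 1 and 3. The germ cell markers listed for this work held 844, 803 and 1444 crosslinks in replicates 1, 2 and 3, those of Sertoli cells 41, 61 and 50, and those of Leydig cells 40, 46 and 56. The 4 markers of other organs held 7, 30 and 3, with the defining liver markers Alb and Apoa1 at 0 and 38 of the 40 in Ins2. The 3 blood markers held 0, 9 and 2 and the 2 peritubular markers 6, 10 and 15.

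The importin genes held 430, 262 and 837 crosslinks in replicates 1, 2 and 3 over the exons and introns of their canonical transcripts. Their exons took 291, 107 and 638 of these, or 67.7%, 40.8% and 76.2%. The opposite strand of the same exons held 2, 10 and 2 crosslinks, and that of the introns 13, 31 and 9. Summed over the 10 genes, the signal thus lay mostly on the strand of the genes. In replicate 2 the introns of Ipo11 and Ipo7 held more on the opposite strand, 17 against 13 and 7 against 6. The order of the libraries was that of the exon share over all coding genes, with replicate 2 lowest. The part of library quality in these differences was not tested.

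Most of the exonic signal came from 1 gene. Ipo5, whose product imports ribosomal proteins and histones, had 204, 36 and 470 exonic crosslinks in replicates 1, 2 and 3, which is 70.1%, 33.6% and 73.7% of all exonic crosslinks of the importin genes. Its level in exons was 80.9, 9.23 and 129 CPM per kb, on average 73.1 ± 60.3 (SD, n = 3), which placed it at rank 157 of 13718 protein-coding genes with an exonic crosslink. Replicate 2 was far below the other libraries, and the SD is nearly as large as the mean. Over exons and introns together Ipo5 stood at rank 50 of 16317 protein-coding genes. The median gene with an exonic crosslink had 1.82 CPM per kb.

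Next came Kpna4, with 30, 21 and 66 exonic crosslinks and 11.4 ± 6.14 CPM per kb (SD, n = 3), at rank 1766. Kpna6, another importin-α gene, had 15, 11 and 35 exonic crosslinks and 9.11 ± 5.06 CPM per kb. Kpnb1, which encodes importin-β1 itself, had 14, 15 and 23 and 7.42 ± 1.79 CPM per kb. The ranges of these 3 genes over the libraries overlapped each other. Compared within each library, Kpna4 was above Kpna6 in all 3, with 11.5 against 8.85, 5.18 against 4.19 and 17.5 against 14.3 CPM per kb. Kpnb1 was the lowest of the 3 genes in replicates 1 and 3 and the highest in replicate 2. These differences were not tested. In each library Ipo5 was above the others, but its lowest library, at 9.23 CPM per kb, was below the highest libraries of Kpna4 and Kpna6.

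Lower levels followed. Kpna1 had 12, 10 and 8 exonic crosslinks and 4.89 ± 2.13 CPM per kb, Ipo7 had 6, 3 and 20 and 4.82 ± 4.02, and Ipo11 had 6, 4 and 7 and 3.53 ± 1.37. Kpna3 had 1, 5 and 6 exonic crosslinks and 1.77 ± 1.03 CPM per kb, Ipo8 had 3, 2 and 2 and 1.16 ± 0.589, and Kpna2 had 0, 0 and 1 and 0.379 ± 0.656 (SD, n = 3 throughout). The ranges of neighbours in this order overlapped over the libraries. Of the 10 genes, 6 were above the median of 1.82 CPM per kb in all 3 libraries, namely Ipo5, Kpna4, Kpna6, Kpnb1, Kpna1 and Ipo11. That median is of means over the libraries. How many of all genes exceed it in every library was not counted, so the 6 cannot be set against a background. An iCLIP level depends on how much of a transcript is present as well as on how it is bound, and transcript abundance was not measured in these libraries.

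**Figure D1:**
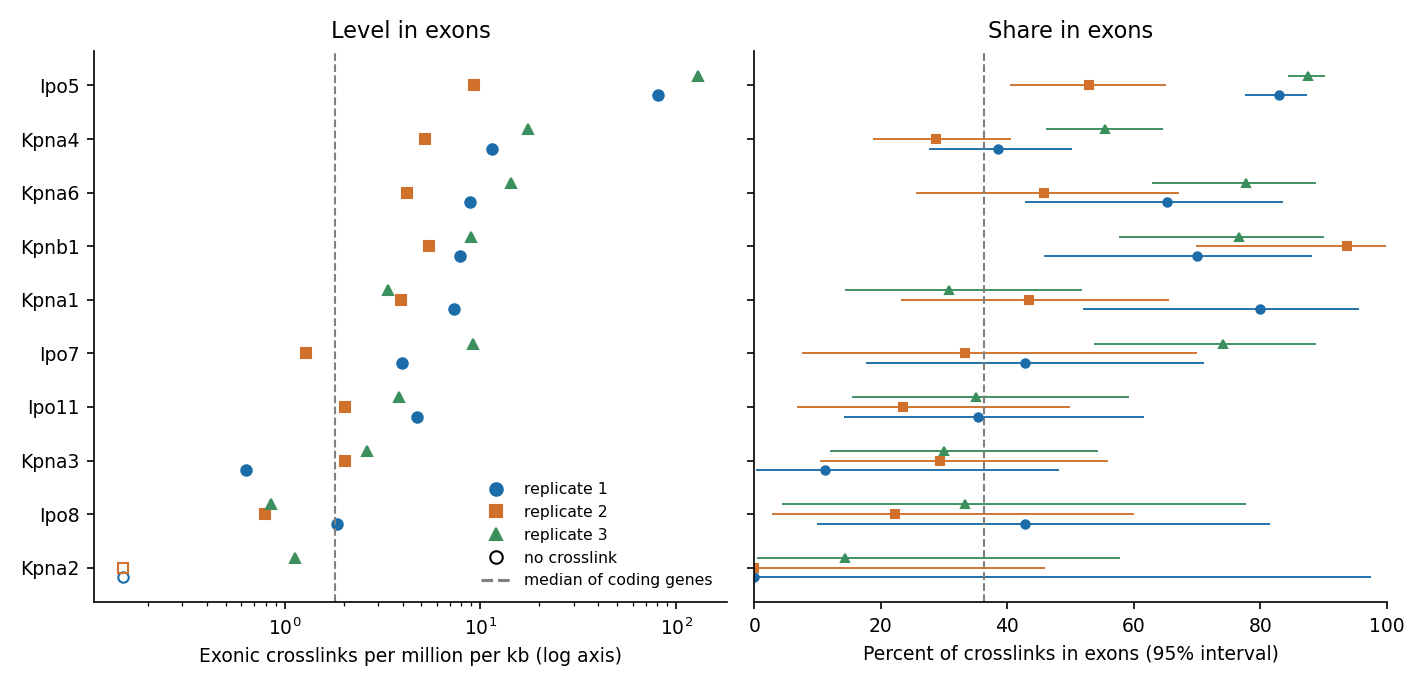
Left, exonic CPM per kb of exon (log axis) for the 10 importin genes, with 1 point per library and open points at the left edge for a library without an exonic crosslink. Right, the percent of each gene's crosslinks that lay in exons, with 95% Clopper-Pearson intervals. Dashed lines are medians of coding genes, 1.82 CPM per kb and 36.4%. Ipo5 lies farthest to the right in level in each library.

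The split between exons and introns also differed among the importin genes. Summed over the libraries, 83.4% of Ipo5 crosslinks were exonic, at percentile 92.6 of 6907 coding genes with introns and at least 20 crosslinks, whose median was 36.4%. Kpnb1 was also mostly exonic, with 70.0%, 93.8% and 76.7% in replicates 1, 2 and 3. Kpna6 had 65.2%, 45.8% and 77.8%. Kpna4 had 38.5%, 28.8% and 55.5%, on average 40.9% ± 13.5 (SD, n = 3), near the median of coding genes, and 99 of its 153 intronic crosslinks lay in intron 1. Kpna3, Ipo8 and Ipo11 had 26.1%, 31.8% and 31.5% of their summed crosslinks in exons. In Kpna2, with 14 crosslinks in all, the intervals were too wide to resolve a share.

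Within the exons, coding sequence was denser than the 3′ untranslated region in the genes with the most crosslinks. Ipo5 had 656 crosslinks in 3291 nt of coding sequence, or 199 per kb, against 52 in 4981 nt of 3′ UTR, or 10.4 per kb. Kpna4 had 53.1 per kb in coding sequence and 4.61 in its 3′ UTR, and Kpna6 had 28.0 and 3.99. Kpnb1 had 14.1 and 4.71 per kb. Ipo11 had 3.69 and 4.42 per kb, on 10 and 6 crosslinks. In Kpna1, 9 of the 13 crosslinks in the 3′ UTR came from replicate 1.

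Kpna4 exon 3 stood out first. It codes for residues 39 to 68 of 521, in the N-terminal part of the protein, where importin-α proteins carry the importin-β-binding domain. The exon is 90 nt long, which is a whole number of codons, and makes up a small part of a transcript of 8819 nt. It held 7 of 30 exonic crosslinks in replicate 1, 6 of 21 in replicate 2 and 16 of 66 in replicate 3. These are 23.3% (95% Clopper-Pearson interval 9.93 to 42.3), 28.6% (11.3 to 52.2) and 24.2% (14.5 to 36.4), so the share was alike in all 3 libraries although their depth and exon share were not. Per nt the exon was above the other exons of the transcript by a log2 fold of 5.09 ± 0.22 (SD, n = 3), with 0.5 crosslinks added to each count. Against the other internal exons alone, without the long last exon, the log2 fold was 3.33 ± 0.38 (SD, n = 3). Against its flanking introns, which held 1 crosslink in each library over 882 nt, the log2 fold was 5.93 ± 0.72.

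The 29 crosslinks in Kpna4 exon 3 were not spread evenly. The densest window of 41 nt, chr3:69008702-69008742, held 5, 6 and 12 of them in replicates 1, 2 and 3, or 23 in all, and it contains 4 of the 5 GAA of the exon and has 70.7% purines. Over the whole exon the purine content was 65.6%, at percentile 94.8 of internal exons. Of 11835 internal exons within 10% of its length, 13.5% have as many GAA. The neighbouring exon 2 of 45 nt held 0, 1 and 3 crosslinks and exon 4 of 30 nt held 2, 0 and 1. Exons 2 to 4 together had 218 crosslinks per kb, summed over the libraries, and exons 5 to 16 had 29.2. Without exon 3 the coding sequence after the midpoint held 46.3% of the remaining 54 coding crosslinks, and with it 30.1% of 83.

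The nearest paralog of Kpna4 is Kpna3, and the encoded proteins are identical in 447 of 521 residues (85.8%). Exon 3 of Kpna3 also has 90 nt, is 71.1% identical in nucleotides, has 64.4% purines and 6 GAA, and had no crosslink in any library. Kpna3 had only 12 exonic crosslinks in all, 1, 5 and 6 in replicates 1, 2 and 3. A count of 0 of 6 in replicate 3 still allows a share of up to 45.9% (95% Clopper-Pearson interval), so a share like that of Kpna4 exon 3 was not detectable at this depth. Summed over the libraries, the whole Kpna3 transcript had fewer exonic crosslinks than Kpna4 exon 3 alone, 12 against 29, but in replicate 2 it was 5 against 6. Because Kpna4 exon 3 was chosen for its many crosslinks, this is a description and no evidence of a difference between the paralogs. Of 17 matched exon pairs, Kpna4 had more crosslinks in 15 and Kpna3 in 1, exon 8, with 0 against 2.

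A second importin-α pair was compared in the same way, at lower counts. Kpna6 and Kpna1 encode proteins that are identical in 81.6% of aligned residues. Kpna6 exon 2, which codes for residues 2 to 46 at the N terminus, held 2, 4 and 5 crosslinks in replicates 1, 2 and 3, the most of any internal exon of Kpna6. Its purine content was 70.1%, at percentile 98.2 of internal exons, and of 15893 internal exons within 10% of its length 1.35% have as many as its 10 GAA. Exon 2 of Kpna1, of the same length of 134 nt and with 10 GAA in its coding part, held 0, 1 and 0 crosslinks. Here too the depth differed, since Kpna6 had 61 exonic crosslinks and Kpna1 had 30. In Kpna1 the internal exon with the most crosslinks was exon 3, with 1, 4 and 0. This exon has 8 GAA, codes for residues 44 to 79 of 538 and matches Kpna6 exon 3, which held 1, 0 and 1 crosslinks. Over 13 matched exons, with the libraries summed, Kpna6 had more crosslinks in 10 and Kpna1 in 3. The excess came mostly from replicate 3, with 35 exonic crosslinks in Kpna6 against 8 in Kpna1. In replicates 1 and 2 it was 15 against 12 and 11 against 10.

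**Figure D2:**
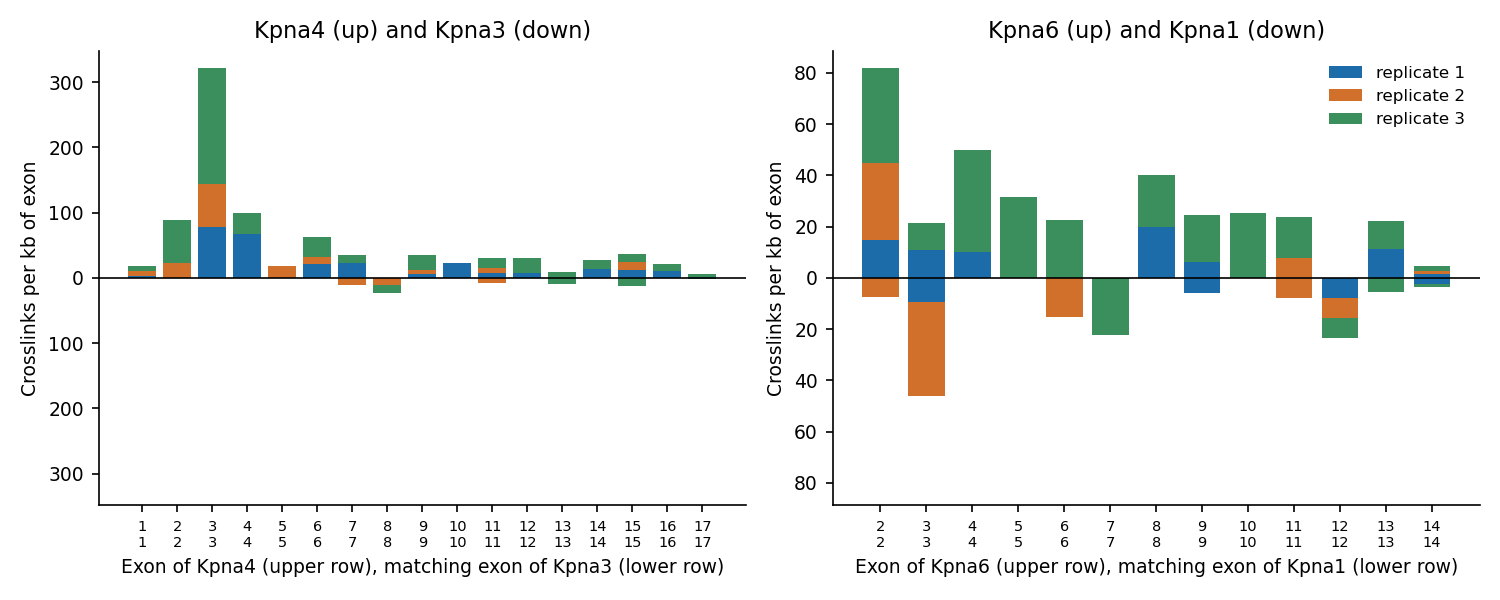
Crosslinks per kb of exon for matched exons of Kpna4 and Kpna3 (left) and Kpna6 and Kpna1 (right), stacked over the 3 libraries by colour. Bars up are the first gene and bars down its paralog, on the same scale within a panel. Kpna4 exon 3, with 29 crosslinks, is the tallest bar on the left and has no counterpart in Kpna3.

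Ipo7 and Ipo8, paralogs with 64.4% identical residues that import ribosomal proteins and other cargoes, had low counts throughout. Ipo7 had more crosslinks in 14 of 25 matched exons and Ipo8 in 2. The largest count in any internal exon of Ipo7 was 3, as in exon 20 with 1, 1 and 1, and the largest in Ipo8 was 1. Ranbp6, a close relative of Ipo5 with 77.6% identical residues, held 1, 1 and 2 crosslinks against 246, 68 and 537 in the exons and introns of Ipo5.

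In the remaining importin genes no internal exon had more than 4 crosslinks. Kpnb1, the partner of importin-α, had its exonic crosslinks spread over its exons, of which 4 of 22 had none. Its internal exons with the most were exon 4, with 2, 1 and 1 crosslinks, and exon 18, with 0, 1 and 3, where Kpna4 exon 3 had 29 in all. Ipo11, a receptor with 30 exons, had 1 crosslink in each of 10 internal exons and 3, 0 and 3 in its last exon. Kpna3 had at most 2 in an internal exon, in exons 8 and 15. Kpna2 had a single exonic crosslink, in exon 7 in replicate 3, beside 1, 6 and 6 in its introns. At these counts an exon with a share like that of Kpna4 exon 3 could have gone unseen in Kpna2, Kpna3 and Ipo8.

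In Ipo5 all 26 exons were crosslinked, and the density rose towards the 3′ end of the coding sequence. Exons 1 to 12 held 36, 9 and 96 crosslinks in replicates 1, 2 and 3, or 91.4 per kb summed over libraries. Exons 13 to 18 held 42, 8 and 83, or 160 per kb. Exons 19 to 25 held 108, 13 and 240, or 342 per kb. The last exon, with most of the 3′ UTR, had 14.8 per kb. These groups of exons were set after the values were seen and have no test. The part of the coding sequence after its midpoint held 72.5%, 63.6% and 73.5% of coding crosslinks in replicates 1, 2 and 3, and 72.7% summed, at percentile 92.9 of 2783 coding genes with at least 20 coding crosslinks, whose median was 49.7%. Without exon 21 the summed share was 69.5%, at percentile 90.5, so the skew did not rest on that exon. Without exons 19 to 25 it was 39.3%, but then only 591 nt were left after the midpoint, with 116 crosslinks. The 1645 nt before it held 179, so per nt the later part was still denser. This last share cannot be set beside the median, because the lengths differ.

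Ipo5 exon 21, the densest exon of the set, is 56 nt long and codes for residues 813 to 831 of 1097. It held 22, 5 and 43 crosslinks in replicates 1, 2 and 3. These were 10.8% (95% Clopper-Pearson interval 6.88 to 15.9), 13.9% (4.67 to 29.5) and 9.15% (6.70 to 12.1) of the exonic crosslinks of the gene. The log2 fold per nt was 4.29 ± 0.39 over the other exons and 3.09 ± 0.47 over the other internal exons, and 7.59 ± 0.23 over the flanking introns, which held 4 crosslinks in 849 nt (SD, n = 3 each). Among 1670 internal exons with at least 3 crosslinks in each library, its fold over the other exons ranked 16 and that of Kpna4 exon 3 ranked 5. For the fold over the flanking introns the order was turned, with rank 73 of 1675 for Ipo5 exon 21 and rank 547 for Kpna4 exon 3. These ranks describe exons chosen on the same measure.

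The crosslinks of Ipo5 exon 21 covered its first part. The first 41 nt, chr14:121179242-121179282, held 63 of 70 and none lay in the last 10 nt. Single nucleotides recurred between libraries in this gene. Of 846 crosslinked exonic positions of the importin genes, 58 were crosslinked in at least 2 libraries, and 55 of these were in Ipo5. That gene also held 532 of the 846 positions, and recurrence in other genes of like depth was not measured. All 4 positions crosslinked in all 3 libraries were in Ipo5, with 2 of them in exon 21. The first base of the exon had 2, 2 and 2 crosslinks, and position 24 had 1, 1 and 3. The position with the most crosslinks in the exon, 21, had 2, 0 and 7. The other 2 were in exon 1, with 1, 1 and 3, and in exon 24, with 1, 1 and 1.

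**Figure D3:**
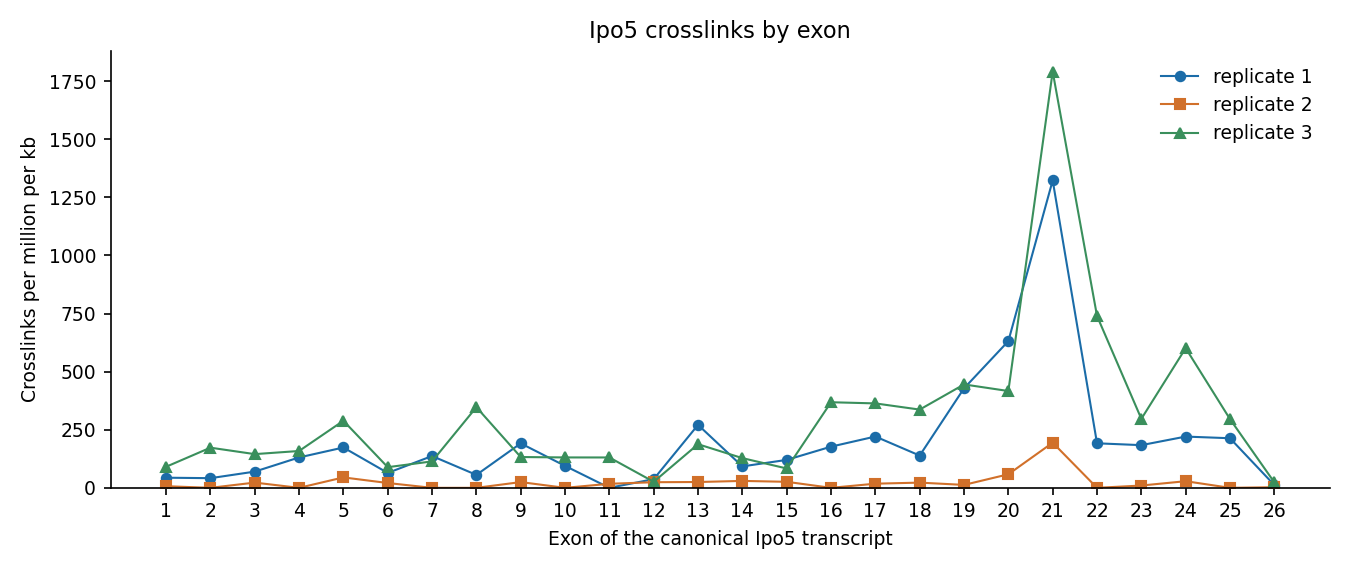
CPM per kb for each of the 26 exons of Ipo5, 1 line per library. Exon 21 is highest in all 3 libraries, and most exons from 19 to 25 lie above most of exons 1 to 12 in replicates 1 and 3, while replicate 2 is low throughout.

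**Figure D4:**
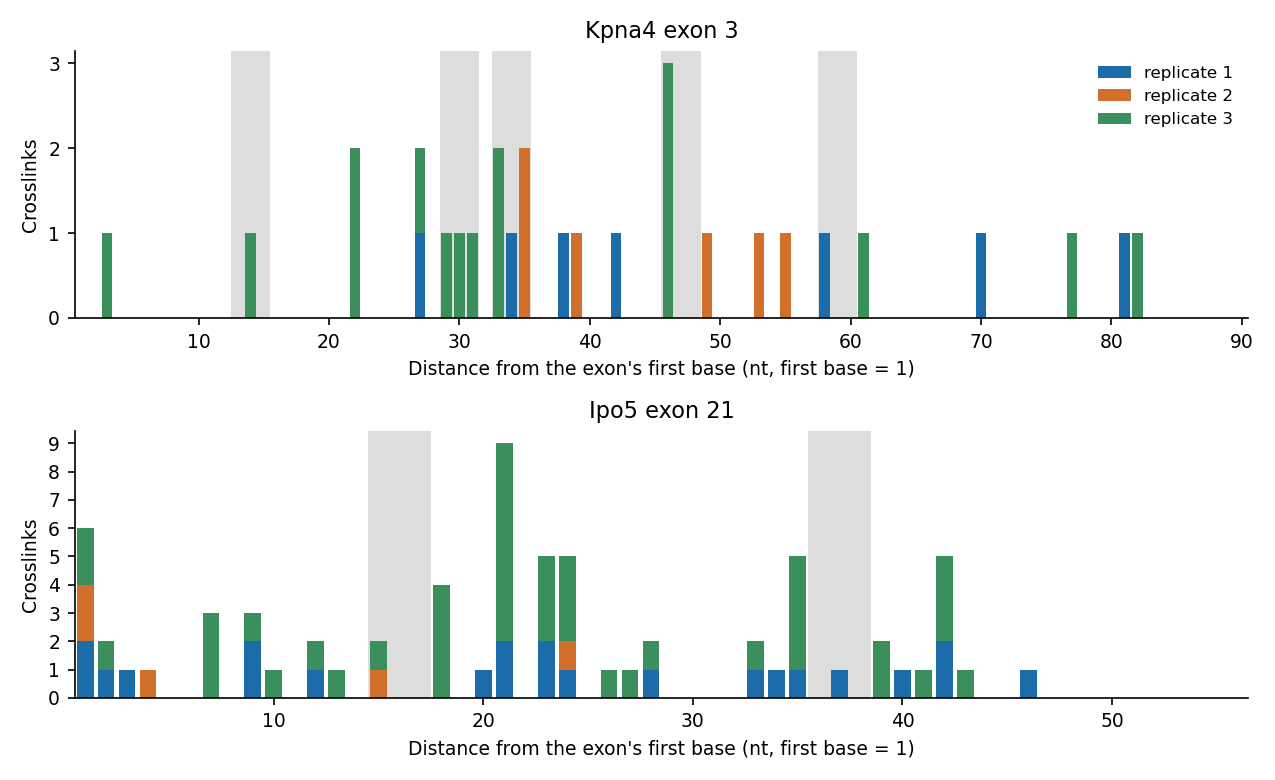
Crosslinks at each nucleotide of Kpna4 exon 3 (90 nt, 29 crosslinks) and Ipo5 exon 21 (56 nt, 70 crosslinks), stacked by library, against the distance from the first base of the exon. Grey bands mark the trinucleotides shown in capitals in the sequences. In Kpna4 exon 3 most crosslinks lie in the middle part, and in Ipo5 exon 21 the 3′ end is empty.

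To ask whether other importin exons stood above the rest of their transcript, every internal exon of genes with at least 20 exonic crosslinks was compared with the other exons by an exact binomial test (two-sided, expected share from length), with Benjamini-Hochberg adjustment over 51567 exons in each library. To be called, an exon had to reach an adjusted p under 0.05 in every library with 1 direction throughout. Over all genes 0.200% of exons were called higher and 0.00388% lower. Of 104 importin exons other than Kpna4 exon 3 and Ipo5 exon 21, in 6 of the 10 genes, 0 were called. At an unadjusted p under 0.05 in all 3 libraries 2 were higher, Kpna6 exon 2 and Ipo5 exon 20, and 0 lower, while over all genes 486 of 51567 exons (0.942%) were higher and 0.0175% lower. The exons with an adjusted p under 0.05 in 2 of the 3 libraries were Kpna6 exon 2, with a log2 fold of 3.50 ± 0.99 and 4 crosslinks in replicate 2 against 7 in the other exons, Ipo5 exon 20, with 2.62 ± 0.74, and Ipo5 exon 19, with 1.82 ± 0.77 (SD, n = 3). The largest of the 3 exact binomial adjusted p-values was 0.763, 0.266 and 1 for these exons in turn, and 0.742 for Ipo5 exon 24, which passed in 1 library. Without replicate 1, Kpna6 exon 2 was called, where 0.448% of all exons were called higher, and without replicate 2, Ipo5 exons 19 and 20 were called, where 0.535% were. The reference for these exons includes a long last exon with few crosslinks, 4.76 per kb in Kpna6 and 14.8 in Ipo5. Folds over the other internal exons alone would be smaller and were not taken for them.

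Against the flanking introns, 1.59% of 88341 internal exons were called higher and 0% lower. Of 170 importin exons other than the chosen pair, 3 were called higher and 0 lower, a share near that background. Ipo5 exon 20 held 21, 3 and 20 crosslinks against 5 in 723 nt of flanking introns over all libraries, a log2 fold of 5.51 ± 0.28 (SD, n = 3) with a largest exact binomial adjusted p of 0.0457. With the 50 nt next to each splice site left out of the introns it was no longer called. Ipo5 exon 24, which codes for residues 946 to 1022, held 15, 3 and 59 against 6 in 1948 nt, a log2 fold of 6.74 ± 1.14 with a largest exact binomial adjusted p of 0.0268. Kpna6 exon 2 held 2, 4 and 5 against 15 in 14682 nt, a log2 fold of 6.32 ± 0.72 with a largest exact binomial adjusted p of 0.0287. Without replicate 2, whose importin exon counts were lowest, 20 of the 170 importin exons were called, 18 of them in Ipo5, where 5.15% of all exons were called higher.

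The introns of the importin genes held 139, 155 and 199 crosslinks. Each intron was tested against the other introns of its transcript in genes with at least 20 intronic crosslinks. Over all genes 0.368% of 75071 introns were called higher and 0.163% lower. Of 136 introns in 7 importin genes, 0 were called in either direction by the exact binomial test, and 0 passed an unadjusted p under 0.05 in all 3 libraries, where 1.20% of all introns were higher and 0.637% lower. Kpna4 intron 1, of 24483 nt, held the most, with 31, 30 and 38 crosslinks. Genes annotated within the Kpna4 gene on its strand overlap some of its crosslinks: exons of Gm22009, a small RNA, held 1, 6 and 0, and those of Gm37558 held 6, 7 and 6. Ipo5 intron 1 of 6012 nt held 14, 11 and 19. Of the 493 intronic crosslinks, 24 (4.87%) lay in the 50 nt before a 3′ splice site, which make up 1.96% of intronic bases, and 5 (1.01%) in the 50 nt after a 5′ splice site. The 24 were 6, 2 and 16 in replicates 1, 2 and 3, so most came from replicate 3. The same share over the introns of all genes was not taken.

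Exons that are annotated only in other transcripts of these genes held little. Of 42 such exons, 28 had no crosslink. Those with 3 or more were a pair of overlapping alternative terminal exons of Kpna2 within intron 1 of the canonical transcript, with 0, 2 and 1 crosslinks each, and 1 exon of 2724 nt of Ipo11 in intron 28, with 2, 1 and 0.

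The relation to GAA over the whole set depended on the window and the motif. The share of exonic crosslinks with a GAA within 30 nt on either side was 81.1%, 91.6% and 81.0% in replicates 1, 2 and 3, against 74.0% of all exonic bases, a ratio of 1.14 ± 0.08 (SD, n = 3). When only coding bases were used and the expected share was taken gene by gene, an alternative chosen after seeing the data, the ratio was 1.04 ± 0.09. Most bases lie within 30 nt of a GAA, so neither ratio could rise far above 1, and they cannot show how strong the relation is. Within 10 nt, where 40.9% of exonic bases lie, the ratio was 1.29 ± 0.17, and over coding bases 1.12 ± 0.15 (SD, n = 3). The paper reports that AGAA sequences were highly enriched among the most frequent pentamers near crosslinks in exons, not limited to the importin genes. The ratio used here is another measure, the share of crosslinks with the motif within a window, in the importin genes only. For AGAA within 30 nt the expected coding share was 45.8%, 44.6% and 45.8% in replicates 1, 2 and 3. The AGAA ratios that follow therefore do not test the paper's result. The coding ratio for AGAA within 30 nt was 0.819, 1.24 and 0.929 in replicates 1, 2 and 3, on average 0.998 ± 0.221. By gene it was 0.877 ± 0.161 in Ipo5, 1.41 ± 0.33 in Kpna4 and 1.18 ± 0.10 over the other genes. For the rarer pentamer GAAGA, which contains GAA, the expected coding share was 27.1%, 24.2% and 27.0% and the ratio 1.43, 2.20 and 1.30 in replicates 1, 2 and 3, on average 1.64 ± 0.49. It was 1.17, 2.04 and 1.06 without Kpna4 exon 3 and Ipo5 exon 21. Kpna4 alone had ratios of 1.70, 2.73 and 2.64 for GAAGA, and Ipo5 had 1.49, 2.17 and 1.24. Since the chosen exons enter these values, the ratios were also taken without them, again after seeing the data, and were 0.405, 2.36 and 2.02 in Kpna4 without exon 3, on 14, 12 and 28 coding crosslinks, and 1.28, 2.00 and 1.03 in Ipo5 without exon 21. Summed over the 8 other genes, the GAAGA ratio was 0.805, 1.99 and 0.955, on 30, 39 and 81 coding crosslinks. Within a GAA distance of 10 nt, the coding ratio was 1.51 ± 0.17 in Kpna4 and 0.966 ± 0.105 in Ipo5, and 1.39 ± 0.19 and 0.919 ± 0.105 without those exons (SD, n = 3). The letters were searched on the RNA strand only, and a match is a description and not a binding site.

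Exon by exon, base composition had no clear relation to the crosslink density. Across internal exons the Spearman correlation of purine content with crosslinks per nt was 0.20 over 24 exons of Ipo5, 0.19 over 15 exons of Kpna4, 0.36 over 12 exons of Kpna6 and -0.03 over 20 exons of Kpnb1. With GAA per 100 nt in place of purine content, it was 0.19, 0.33, -0.004 and -0.18 in these genes in turn. Exons of a gene share its transcript and libraries and are not independent. Ipo5 exon 19, with 22, 1 and 33 crosslinks, has 48.6% purines and 0 GAA, so a high count was also found in an exon without the motif.

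The other genes of nuclear transport give the setting. They were grouped as 11 other import receptors and adaptors, 7 export receptors, 8 genes of the Ran cycle and 29 nuclear pore genes. Against the other exons of their transcripts, by the exact binomial test described, 0 of 121, 0 of 98, 0 of 49 and 0 of 367 tested exons were called in these groups in turn. Against the flanking introns, where 1.59% of all exons were called higher, 0 of 166 exons of import receptors, 0 of 165 of export receptors, 8 of 67 of the Ran cycle and 6 of 473 of the nuclear pore were called higher, and 0 were called lower. The called exons of the Ran cycle lay in Ranbp2, Rangap1 and Rcc1. Ranbp2, a large protein of the cytoplasmic side of the pore that binds Ran, had 46, 50 and 88 crosslinks in exon 20, a log2 fold of 3.91 ± 0.37 (SD, n = 3). Rangap1, which activates GTP hydrolysis by Ran, had 8, 21 and 17 in exon 11, a log2 fold of 6.01 ± 1.40, and 5, 5 and 10 in exon 14, a log2 fold of 4.99 ± 0.11. Nup98, a pore protein with FG repeats, had 5, 4 and 12 in exon 16 and 6, 5 and 8 in exon 23. The median exonic level was 2.69 CPM per kb in the other import receptors and adaptors, 3.28 in export receptors, 9.91 in the Ran cycle and 4.81 in the nuclear pore, beside 1.82 over coding genes with an exonic crosslink. Introns of these groups were not called, with 0 of 94, 0 of 120, 0 of 67 and 0 of 461 tested.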

How the data were processed

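Tra2β iCLIP had been done on testes of adult wild type mice in 3 biological replicates. The authors ran the iMAPS pipeline, and the submitters' processing notes name Trim Galore 0.6.7, Bowtie 1.3.1, STAR 2.7.9a and UMI-tools 1.1.2 with build mm39. How multi-mapping reads were handled is not given in the sources used here. For counts, the deposited files list, for each crosslinked nucleotide and strand, a whole-number count of unique cDNAs, with no normalisation or pooling. Nucleotides without a cDNA were not listed. Names and lengths of sequences fitted GRCm39.

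Crosslinks were counted on the strand of the gene over exons and introns of the Ensembl canonical transcript in GENCODE vM39 (Python 3.11.15, NumPy 2.4.6, SciPy 1.17.1, Biopython 1.88 for alignments). CPM was scaled to 296946, 459310 and 428612 crosslinks in genes. Exact binomial tests with Benjamini-Hochberg adjustment were fitted over all genes with at least 20 crosslinks. The test against the other exons was also run on simulated data with 200 changed exons. Many of these were not called, so an exon that was not called may still differ. Log2 folds used 0.5 added crosslinks. Paralog exons were matched by aligning translations.

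The genes, exons and lists were chosen with earlier results of these data known. Named were all 10 genes, the chosen exons with their paralog matches, the internal exon with most crosslinks per gene, and called exons. In other transport genes these were at most the 5 called exons with most crosslinks. Protein sequences were not used here. With 1 group of samples, no test between groups was made.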

Additional observations from a re-analysis of the deposited data

How the results depend on the processing

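Of 61 recomputed values, 43 kept their direction and size within the spread between replicates or within 1.5 times the count. For levels, shares, folds and ratios, leaving out 1 of 3 libraries cannot shift the mean beyond that spread. Those settings were bound to be counted as kept and are no sign of stability. With counts summed over the 3 libraries, 15 of 104 importin exons were called higher against the other exons (6.08% over all genes) and 62 of 170 against the flanking introns (27.5%), and 4 of 136 introns were called in either direction (7.37%). Of the exons called at this setting, Ipo5 held 11 of the 15 and 22 of the 62. With an adjusted p under 0.05 in at least 2 of 3 libraries, 3 of 104 exons were called higher against the other exons (0.745% over all genes). Leaving out 1 library at a time gave 0 to 2 importin exons called against the other exons (1 without replicate 1, Kpna6 exon 2, and 2 without replicate 2, Ipo5 exons 19 and 20), 3 to 20 against the flanking introns (20 without replicate 2) and 0 introns. Over all genes the shares called higher at these settings ran from 0.256% to 0.535% against the other exons and from 1.82% to 5.15% against the flanking introns. The log2 fold of Kpna4 exon 3 over the other exons fell from 5.09 to 3.56 with the pseudocount added to observed and expected crosslinks and to 3.33 with the other internal exons as the reference. That of Ipo5 exon 21 fell from 4.29 to 3.46 and 3.09 under the same settings and to 3.87 with each position counted once. Without 1 library these folds ranged from 4.97 to 5.17 and from 4.08 to 4.47. The GAA ratio of 1.14 became 1.29 within 10 nt, 1.05 within 50 nt, 1.16 for AGAA and 2.66 for GAAGA. Over coding bases with the expected share taken gene by gene it was 1.04, and 1.64 there for GAAGA. The GAA ratio of 1.14 ranged from 1.10 to 1.17 without 1 library. The summed level of the 10 genes, 1324 CPM, ranged from 1009 to 1700.4 without 1 library, and their exon share of 61.6% from 54.3% to 71.9%. Without Ipo5, added after seeing the data, the share was 46.6%. Causes of these changes were not tested.

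Depth limits the single genes. Kpna2 had 14 crosslinks and entered no test, and Kpna3, Ipo8 and Ipo11, with under 20 exonic crosslinks each, entered no test of exons against other exons. No paired analysis was possible because all libraries belong to 1 group.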

Other observations

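A cluster of crosslinks lay within the annotated bounds of Kpna1 but outside its canonical transcript, and was not counted above. It spans 64 nt, chr16:35801937-35802000 on the plus strand, 1680 nt before the first base of the canonical transcript and inside an intron of another annotated Kpna1 transcript. It held 6, 92 and 3 crosslinks in replicates 1, 2 and 3, against 15, 23 and 26 in the exons and introns of Kpna1, and 0 on the opposite strand. The signal was nearly all from replicate 2, the library with the lowest exon share. Exact stretches of 18 nt from this cluster occur at 25 other places in GRCm39, so these reads may not be unique to Kpna1.

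Ipo11 had the most crosslinks on the opposite strand, 30 in its introns against 37 on its own strand. Of these, 5, 11 and 1 in replicates 1, 2 and 3 lay in intron 29. Exons of the genes annotated within Ipo11 on that strand held 0 crosslinks.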
